A study of Mus musculus with 12 samples.

Results

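The genes Arg1, Mrc1, Retnla, Chil3, Clec10a, Clec7a, Mgl2, Cd163, Il4ra and Tgm2, used as marks of alternative macrophage activation, were followed by their symbols in a table of read counts, where each of the 10 had 1 row of 55335 genes. The table held 12 libraries of mRNA from male C57BL/6N mice, with n = 3 libraries in each of 4 groups. Bone-marrow-derived macrophages (BMDMs) came from Tshr f/f mice, whose thyroid-stimulating hormone (TSH) receptor gene carries loxP sites around exon 10, and from Tshr MKO mice, which carry the same alleles and a Cre recombinase driven from the Lyz2 promoter of myeloid cells. BMDMs of both genotypes were grown from marrow in M-CSF (10 ng/mL) over 7 days. The mice that gave the marrow were aged 6 weeks in the labels and 6 to 8 weeks in the study's methods. All BMDMs were given TSH (1 ng/mL) for 24 h, so no library shows cells without TSH. Livers came from mice of both genotypes that were put on a high-fat diet (HFD) at 6 weeks of age for 9 weeks, fasted for 8 h and injected with insulin (1.5 U/kg) 5 min before they were killed. The labels name no IL-4 or IL-13 treatment of any sample.

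Macrophages that meet the cytokines IL-4 or IL-13 bind them with receptors that share the Il4ra chain, and the kinases of the JAK family then activate the transcription factor STAT6. This state is called alternative, or M2, activation, and it is known for genes of sugar-binding and scavenger receptors, of arginase and of secreted chitinase-like and resistin-like proteins, and for its part in tissue repair and in the handling of lipids. Classical, or M1, activation by microbial products or interferon gamma is known instead for Nos2, which makes nitric oxide from the arginine that arginase also uses. Arg1 is also the last enzyme of the urea cycle in hepatocytes, and Tgm2 and Il4ra are made by many cell types, so in a whole liver these 3 genes do not mark macrophages.

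Sequences of these genes are shown where they bear on how the counts can be read. RefSeq promoter windows matched 7 of the 10 genes (build GRCm38.p6), and the bases before the first annotated base of the gene are printed 5′ to 3′ for 5 of them, with motif matches in capitals. The windows were searched on both strands for the STAT6 motif (TTC and GAA with 4 bases of any kind between them), the PU.1 motif GAGGAAGT and the C/EBP motif TTGCNNCAA. Of 32817 windows of 250 bases, 5.85% held the first, 2.44% the second and 1.74% the third. Retnla (chr16:48842359-48842550, plus strand) and Clec7a (chr6:129472780-129473029, minus strand) were the genes of the 7 whose window held the STAT6 motif, and that of Retnla also held the PU.1 motif, read on the opposite strand. The Retnla matches began 198 and 145 bases before the RefSeq start site and did not overlap.
Retnla: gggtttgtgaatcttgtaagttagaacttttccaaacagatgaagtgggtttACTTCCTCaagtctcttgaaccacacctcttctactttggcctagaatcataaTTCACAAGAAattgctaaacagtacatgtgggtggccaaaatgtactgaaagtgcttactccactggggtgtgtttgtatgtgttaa
Clec7a: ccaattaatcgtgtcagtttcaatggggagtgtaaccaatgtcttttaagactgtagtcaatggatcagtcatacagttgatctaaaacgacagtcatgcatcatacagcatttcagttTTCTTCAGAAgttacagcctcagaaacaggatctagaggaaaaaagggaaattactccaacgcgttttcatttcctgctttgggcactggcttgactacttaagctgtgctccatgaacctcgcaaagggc
Mrc1 (chr2:14229164-14229391, plus strand), Mgl2 (chr11:70130107-70130328, plus strand) and Cd163 (chr6:124304401-124304650, plus strand) are shown because their CPM in each Tshr MKO BMDM library exceeded those in all Tshr f/f BMDM libraries. None of the 3 motifs was found in these windows.
Mrc1: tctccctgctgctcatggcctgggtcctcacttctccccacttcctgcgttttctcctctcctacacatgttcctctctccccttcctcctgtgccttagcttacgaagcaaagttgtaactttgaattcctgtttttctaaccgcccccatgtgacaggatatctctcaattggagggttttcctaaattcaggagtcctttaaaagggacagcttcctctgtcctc
Mgl2: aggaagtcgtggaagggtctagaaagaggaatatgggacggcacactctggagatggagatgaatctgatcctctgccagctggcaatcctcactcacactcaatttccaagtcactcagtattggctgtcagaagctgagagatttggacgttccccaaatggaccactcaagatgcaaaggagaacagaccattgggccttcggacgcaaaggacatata
Cd163: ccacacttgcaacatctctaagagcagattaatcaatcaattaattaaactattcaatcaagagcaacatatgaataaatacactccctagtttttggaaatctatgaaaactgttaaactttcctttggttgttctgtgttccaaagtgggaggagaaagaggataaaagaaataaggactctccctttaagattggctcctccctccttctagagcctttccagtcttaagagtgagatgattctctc
A motif match in a window is a description of letters, and no binding was measured.

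In GENCODE M21 (GRCm38) the genes without a printed promoter lie at chr10:24915221-24927484 (Arg1), chr3:106147554-106167564 (Chil3), chr11:70156197-70170834 (Clec10a), chr7:125552120-125579474 (Il4ra) and chr2:158116402-158146436 (Tgm2). Clec10a (Mgl1) and Mgl2 are neighbouring copies on chromosome 11, and their coding sequences were 88.7% identical over the aligned bases. The longest stretch that both share has 183 bases, from coding base 502 to 684 of Clec10a, in the part that encodes the sugar-binding lectin domain. It is printed because a read from within it fits both genes.
Shared by Clec10a and Mgl2: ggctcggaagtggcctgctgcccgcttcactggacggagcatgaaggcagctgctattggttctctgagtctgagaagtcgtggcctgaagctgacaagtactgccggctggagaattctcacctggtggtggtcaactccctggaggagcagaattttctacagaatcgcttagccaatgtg
In the Clec10a transcript with the longest coding sequence, untranslated parts included, 4.08% of windows of 100 bases also occurred in Mgl2 transcripts. Of windows of 150 bases, 1.56% did. The share within the coding sequence alone was not computed. Chil3 and its copy Chil4 were 95.3% identical with a longest shared run of 136 bases, and no window of 150 bases was shared. How the counting program treated reads that fit both copies is not given in the sources used here, so counts of these pairs are uncertain to the extent of the shared part. Exons of Il4ra overlap the antisense gene Gm44876, and those of Tgm2 overlap Rprd1b and Gm20412 on the opposite strand. The libraries were stranded, but whether the counting used the strand is not given in the sources used here.

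The libraries held 28962878 to 40954211 counts, and 3 counts in a library, taken as the limit below which a gene is not told from 0, corresponded to 0.0687 to 0.115 counts-per-million (CPM) in BMDMs and to 0.0714 to 0.106 CPM in livers. This limit covers counting error only. The counts of Tshr itself were 0, 0 and 2 in BMDMs of Tshr f/f mice, 0, 0 and 5 in those of Tshr MKO mice and 0 in each liver, so the counts cannot check the genotype labels. All 10 macrophage markers on a list of such genes were detected in every BMDM group, and the 7 hepatocyte markers held at most 0.235 CPM in any BMDM library. A library of BMDMs stood apart: Tshr f/f replicate 3 had a normalization factor of 0.738, against 0.993 to 1.114 in the other 5. Among the livers, Tshr f/f replicate 1 had the lowest summed level of sinusoidal endothelial markers (49.2 CPM against 121 to 186) and of stellate cell markers (32.1 CPM against 113 to 295). In BMDMs, Tshr f/f replicate 2 had the highest summed level of stellate cell and fibroblast markers (1786 CPM against 392 to 766), led by Col1a1 at 1116 CPM. Values without Tshr f/f replicate 3 in BMDMs and without Tshr f/f replicate 1 in livers stand beside results that they moved. The libraries are separate samples in the labels, and p-values measure the spread between them.

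The 10 genes differed widely in level in both sample types, with Arg1 highest by mean and Retnla, Mgl2 or Cd163 lowest. To compare genes, CPM were divided by the kilobases of exon of each gene, with all 12 libraries scaled together. In the 6 BMDM libraries Arg1 had the highest mean level, 193 ± 281 CPM per kb (SD), but it ranged from 15.6 to 694 with a median of 31.5. Clec7a (dectin-1, a receptor for fungal beta-glucan) lay between 96.4 and 236 with a median of 116, and Tgm2 (transglutaminase 2, which crosslinks proteins) between 55.3 and 264 with a median of 106.6. These 3 genes overlapped in range. Below them came Chil3 (Ym1, a secreted chitinase-like protein) at 22 to 48.6, Il4ra at 14.8 to 46.4 and Mrc1 (the mannose receptor CD206) at 6.11 to 62.3 CPM per kb. Clec10a (a galactose-binding lectin) lay at 0.449 to 13.3, Retnla (FIZZ1, a secreted resistin-like protein) at 0.0944 to 1.38, Mgl2 at 0 to 0.961 and Cd163 (the receptor for haemoglobin bound to haptoglobin) at 0.155 to 0.418. Between neighbours in this order the ranges overlapped in every pair except Tgm2 and Chil3. Retnla and Mgl2 reached down to the limit of 3 counts in BMDMs, with 2 to 43 and 0 to 112 counts per library, while Cd163 was low but above it, with 31 to 127.

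**Figure D1:**
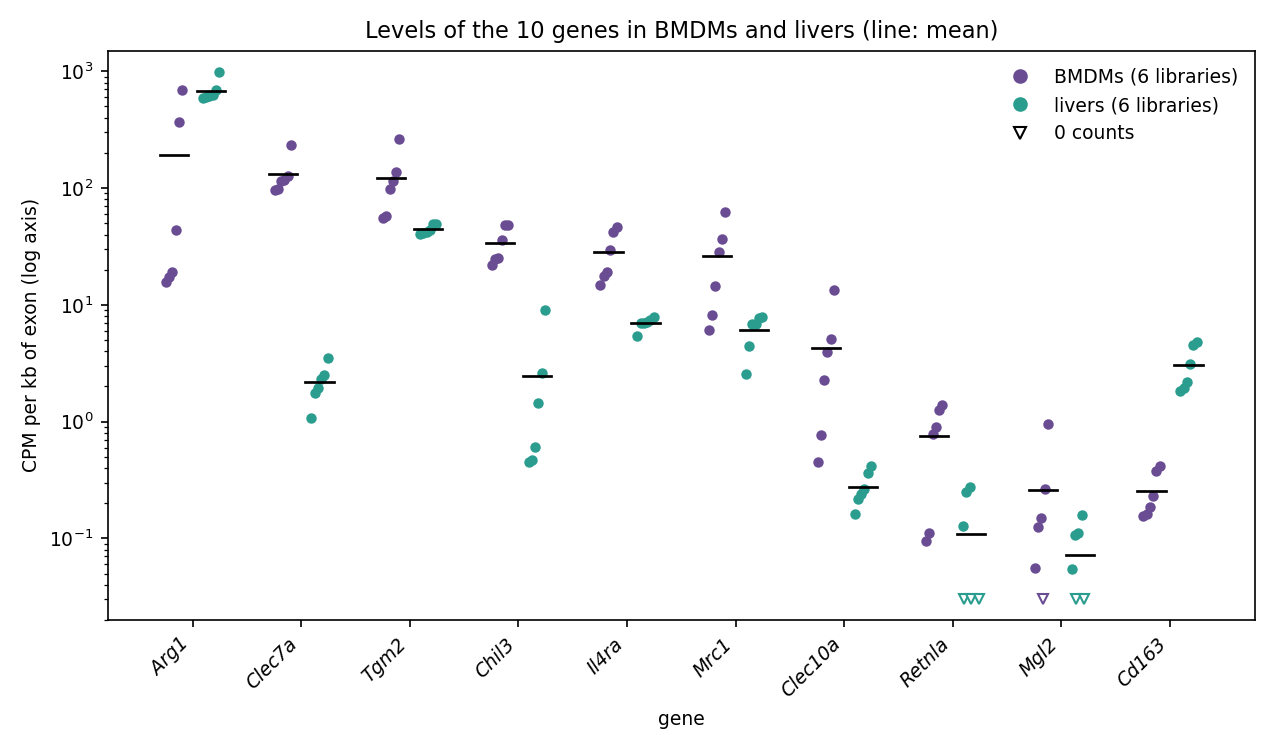
Levels of the 10 genes in 6 BMDM libraries and 6 liver libraries, in CPM per kb of exon on a log axis, with a point per library, open triangles for 0 counts and a line at the mean. Arg1 spans 15.6 to 694 in BMDMs and 589 to 991 in livers, and Cd163 is the gene whose 6 BMDM points all lie under its 6 liver points.

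In the livers Arg1 was again first, at 589 to 991 CPM per kb, and its range was separate from that of Tgm2 at 40.7 to 49.6, which in turn was separate from Il4ra at 5.44 to 7.85. Mrc1 (2.53 to 7.84), Cd163 (1.84 to 4.82), Chil3 (0.448 to 9.09) and Clec7a (1.08 to 3.53) followed with overlapping ranges. Clec10a lay at 0.162 to 0.415, separate from Clec7a above it. Retnla had 0 to 5 counts and Mgl2 0 to 7 counts in a liver, both at or near the limit of 3 counts. The order of the genes by mean thus differed between the sample types mainly in Clec7a and Cd163. Clec7a stood next to Arg1 in BMDMs but below Cd163 and Chil3 in livers, and Cd163 was last in BMDMs. By median, Clec7a (2.125 CPM per kb) lay above Chil3 (1.021 CPM per kb) in livers.

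Between BMDMs and livers, 7 genes were higher in BMDMs and Cd163 was lower. With edgeR's quasi-likelihood test and Benjamini-Hochberg adjustment over 17246 genes, 8 of the 10 passed an adjusted p of 0.05, but so did 77.8% of all genes tested (40.5% lower and 37.3% higher in BMDMs), so the count says little of these genes as a group. The log2 difference (BMDM minus liver) was largest for Clec7a at 5.88 ± 0.34 (SE, adjusted p = 5.6e-08). It was 4.52 ± 0.47 for Chil3, 3.40 ± 0.49 for Clec10a, 2.58 ± 0.92 for Retnla, 1.98 ± 0.24 for Il4ra, 1.74 ± 0.34 for Mrc1 and 1.31 ± 0.22 for Tgm2. Cd163 was 12.5-fold lower in BMDMs (-3.64 ± 0.28, adjusted p = 4.62e-07). Arg1 (-1.87 ± 0.97, adjusted p = 0.0997) and Mgl2 (1.46 ± 0.90, adjusted p = 0.159) did not pass. Cultured macrophages and whole livers differ in cell makeup, diet and treatment at once, and in a bulk sample fewer cells of a type and less RNA per cell cannot be told apart. Without BMDM Tshr f/f replicate 2 the difference of Arg1 was -3.80 (adjusted p = 8.69e-04), without BMDM Tshr MKO replicate 3 it was -2.95 (adjusted p = 0.0194), and without liver Tshr f/f replicate 1 that of Mgl2 was 3.76 (adjusted p = 0.0323). Retnla lost its call without BMDM Tshr f/f replicate 1 (1.49, adjusted p = 0.134) and without liver Tshr f/f replicate 3 (2.33, adjusted p = 0.0511).

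The comparison of Tshr MKO with Tshr f/f BMDMs is one of genotypes as labelled, since the Tshr counts given above do not show a loss of the receptor transcript. The sugar-binding and scavenger receptors Mrc1, Clec10a, Mgl2 and Cd163 were higher in every Tshr MKO library than in any Tshr f/f library, and Tgm2 was lower in every one. The secreted proteins Chil3 and Retnla, the receptors Clec7a and Il4ra, and Arg1 overlapped between genotypes. No gene passed the adjustment: with edgeR, 0 of 15372 genes had an adjusted p under 0.05 (lowest 0.218) and 2756 (17.9%) an unadjusted p under 0.05, while DESeq2 called 1223. At an unadjusted p under 0.05, 4 of the 10 genes were higher in Tshr MKO, where 7.73% of all genes tested were, and 1 was lower, where 10.2% were. Groups that did not overlap were seen in the same 5 genes, against 14.8% of all genes higher and 14% lower. The median log2 fold change of the 10 was 0.78, against 0.01 over all genes. The count of 5 genes became 2 when Tshr MKO replicate 1 was left out, 3 when Tshr MKO replicate 3 was, 7 when Tshr f/f replicate 1 was, and 4 when any of the other libraries was. Of all genes, 13 passed the adjustment when Tshr f/f replicate 2 was left out and 2 when Tshr f/f replicate 3 was.

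**Figure D2:**
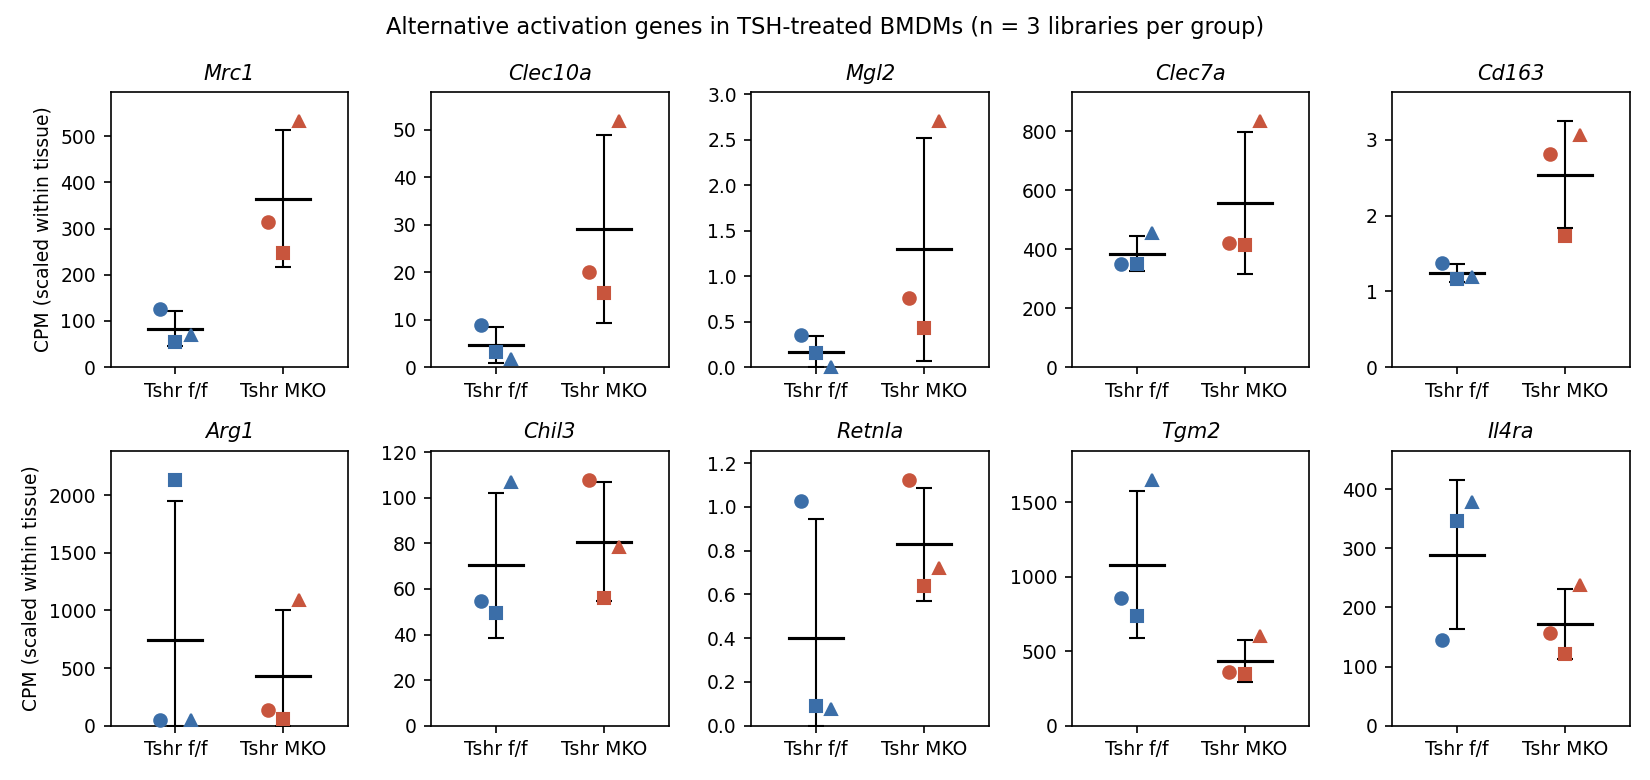
CPM of the 10 genes in BMDMs, scaled within BMDM libraries, on linear axes from 0, with Tshr f/f in blue and Tshr MKO in red, circles, squares and triangles for replicates 1, 2 and 3, a line at the mean and bars of 1 SD that stop at 0 (n = 3). The Mrc1, Clec10a, Mgl2 and Cd163 panels show all red points above the blue ones, the Tgm2 panel all below, and the Arg1 panel has a high library in each group.

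Mrc1, the mannose receptor that takes up glycoproteins, had 126, 53.7 and 70.1 CPM in the Tshr f/f libraries and 315, 247 and 532 CPM in the Tshr MKO libraries. The groups were separate, with means of 83.4 ± 38.1 and 365 ± 149 CPM (SD, n = 3). The log2 fold change was 2.13 ± 0.43 (SE), 4.37-fold higher, with an adjusted p of 0.218 in edgeR and of 1.59e-04 in DESeq2. Leaving out each library in turn gave 1.75 to 2.58, at an unadjusted p under 0.05 each time.

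Clec10a, the galactose-binding lectin of macrophages, had 8.94, 3.09 and 1.77 CPM in Tshr f/f and 19.9, 15.6 and 51.7 CPM in Tshr MKO BMDMs. Mgl2, its neighbouring copy, had 14, 7 and 0 counts (0.351, 0.16 and 0 CPM) in Tshr f/f and 29, 16 and 112 counts (0.757, 0.427 and 2.7 CPM) in Tshr MKO. Both genes were separate between the groups, and both were highest in Tshr MKO replicate 3. The log2 fold change was 2.65 ± 0.74 for Clec10a (edgeR adjusted p = 0.221; DESeq2 adjusted p = 0.00451) and 2.83 ± 1.09 for Mgl2 (edgeR adjusted p = 0.261; DESeq2 adjusted p = 0.0808). With the counts of both copies summed to 1 gene it was 2.66, a value in which the division of shared reads plays no part. Without Tshr MKO replicate 3 the values were 1.94 and 1.71, and Mgl2 then missed an unadjusted p of 0.05, as it did when Tshr f/f replicate 2 (2.74), Tshr f/f replicate 3 (2.32) or Tshr MKO replicate 1 (3.11) was left out.

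Cd163 was low in culture, with 55, 51 and 31 counts in Tshr f/f and 108, 65 and 127 counts in Tshr MKO BMDMs. Scaled, these were 1.38, 1.17 and 1.19 CPM against 2.82, 1.73 and 3.06 CPM, and the groups did not overlap. The log2 fold change was 1.02 ± 0.31 (edgeR adjusted p = 0.225; DESeq2 adjusted p = 0.0436), 2.03-fold higher. It missed an unadjusted p of 0.05 without Tshr MKO replicate 1 (0.94) or 3 (0.87). Clec7a, the receptor through which macrophages bind beta-glucan, had 350, 350 and 454 CPM in Tshr f/f and 421, 416 and 833 CPM in Tshr MKO. Its groups overlapped, since Tshr f/f replicate 3 lay above Tshr MKO replicates 1 and 2, and its log2 fold change of 0.53 ± 0.32 (adjusted p = 0.411) was 0.12 without Tshr MKO replicate 3.

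Tgm2, whose product crosslinks proteins, was the gene with the opposite order. It had 859, 737 and 1651 CPM in Tshr f/f and 358, 348 and 601 CPM in Tshr MKO BMDMs, so the highest Tshr MKO value was under the lowest Tshr f/f value. The log2 fold change was -1.31 ± 0.40 (edgeR adjusted p = 0.225; DESeq2 adjusted p = 0.0247), 2.49-fold lower. Without Tshr f/f replicate 3, the highest library, it was -0.88, and it missed an unadjusted p of 0.05 when Tshr MKO replicate 1 (-1.19) or 2 (-1.17) was left out. Il4ra, the receptor chain shared by IL-4 and IL-13, had 145, 346 and 378 CPM against 157, 121 and 238 CPM. Its groups overlapped because Tshr f/f replicate 1 was low, and its log2 fold change was -0.75 ± 0.42 (adjusted p = 0.38), or -1.05, at an unadjusted p under 0.05, without that library.

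Arg1, which splits arginine into ornithine and urea, varied more within each genotype than between them. Tshr f/f libraries had 47, 2131 and 52.7 CPM and Tshr MKO libraries 133.1, 58.1 and 1091 CPM. A single library of each group was thus high, a 45.3-fold range within Tshr f/f and an 18.8-fold range within Tshr MKO. The log2 fold change of -0.80 ± 1.71 (adjusted p = 0.815) changed sign to 3.10 when Tshr f/f replicate 2 was left out, and was -2.96 without Tshr MKO replicate 3. In the same 2 libraries Mmp8, a collagenase of neutrophils picked after its values were seen, was also high, with 10.6, 334 and 15.2 CPM in Tshr f/f and 23.6, 13.1 and 102.2 CPM in Tshr MKO. Mrc1 and Clec10a shared the high value of Tshr MKO replicate 3 but not that of Tshr f/f replicate 2, where they were at 53.7 and 3.09 CPM.

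Chil3 and Retnla, the secreted proteins, overlapped between genotypes. Chil3 had 54.6, 49.5 and 106.9 CPM in Tshr f/f and 108, 55.9 and 78.5 CPM in Tshr MKO (log2 fold change 0.20 ± 0.37, adjusted p = 0.787), and Chil4 held 1 to 8 counts per library. Without Tshr f/f replicate 3, the highest Tshr f/f library, the Chil3 value was 0.63. Retnla had 41, 4 and 2 counts in Tshr f/f and 43, 24 and 30 counts in Tshr MKO. The Retnla value in Tshr f/f replicate 1 was close to those of Tshr MKO, and the other Tshr f/f libraries were at or near the limit of 3 counts. Its log2 fold change was 1.02 ± 0.96 (adjusted p = 0.582), and 3.25, at an unadjusted p under 0.05, without Tshr f/f replicate 1.

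**Figure D3:**
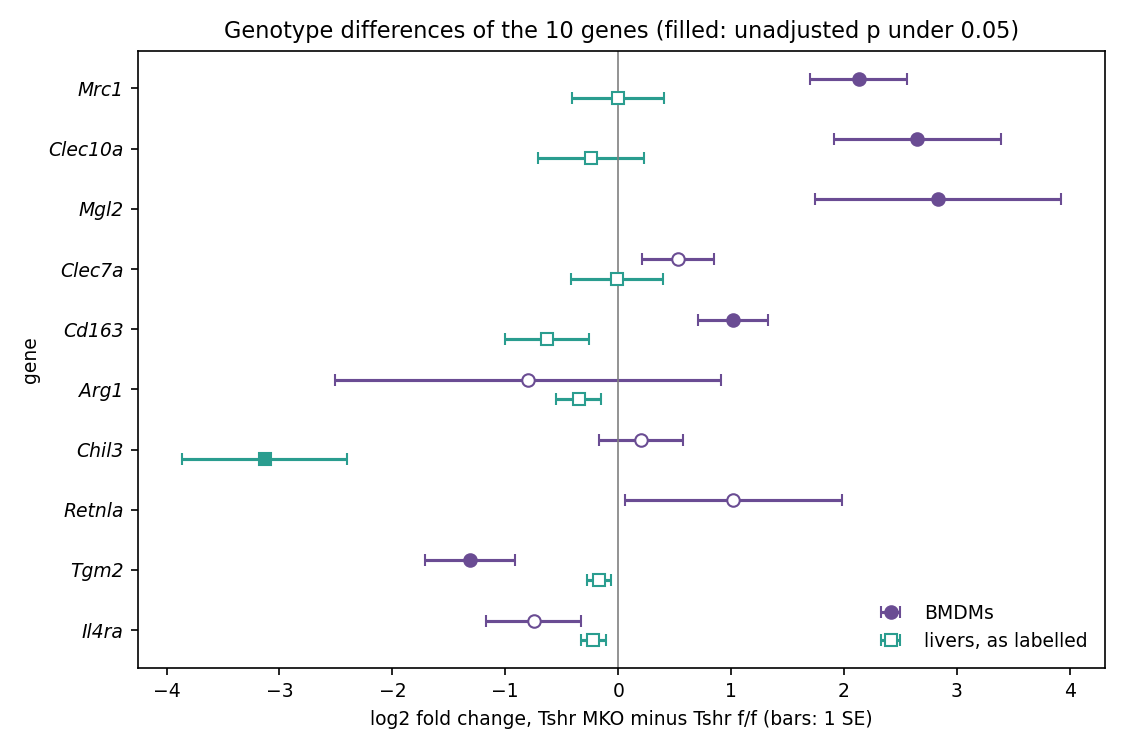
Log2 fold change of each gene between Tshr MKO and Tshr f/f (edgeR), with bars of 1 SE, circles for BMDMs, squares for livers and filled symbols where the unadjusted p was under 0.05. Filled symbols lie right of 0 for Mrc1, Clec10a, Mgl2 and Cd163 in BMDMs and left of 0 for Tgm2 in BMDMs and Chil3 in livers, and Retnla and Mgl2 have no liver value.

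Markers of macrophages and of other cell types were described in the BMDMs. The summed level of the 10 macrophage markers was 19527 to 22559 CPM in Tshr f/f and 26049 to 35873 CPM in Tshr MKO libraries, but Lyz2, whose promoter drives the Cre, set this order: it had 8773 to 9843 CPM in Tshr f/f and 14537 to 22320 CPM in Tshr MKO, and the other 9 markers summed to 9683 to 13786 against 11512 to 13553 CPM, which overlapped. Of the 10, Lyz2 (log2 fold change 0.95) and C1qc (1.07, and 0.96 without Tshr f/f replicate 3, where it missed the limit) were higher at an unadjusted p under 0.05, 0 were lower and 8 did not pass. Clec10a and Mgl2 are also made by dendritic cells, whose 7 markers summed to 11.6 to 17.4 CPM in Tshr f/f and 8.64 to 9.47 CPM in Tshr MKO. Ccr7 alone carried that order, at 6.02 to 13.4 against 2.37 to 3.83 CPM. The other dendritic cell markers summed to 5.6, 5.54 and 4.03 CPM in Tshr f/f and 6.55, 6.27 and 5.64 CPM in Tshr MKO. These groups were barely apart, at 5.6 against 5.64 CPM. Tshr MKO replicate 3, where Clec10a and Mgl2 were highest, had the lowest of the Tshr MKO sums without Ccr7. With Ccr7 included it had the highest, at 9.47 CPM against 9.43 and 8.64 CPM. Of the 5 dendritic cell markers tested, 0 were higher and 1 was lower at an unadjusted p under 0.05. The 8 neutrophil markers summed to 17.9, 365 and 64.1 CPM in Tshr f/f and 29.5, 18 and 113 CPM in Tshr MKO, most of it Mmp8 in the libraries with high Arg1. Without Mmp8 the sums were 7.31, 31.2 and 48.8 CPM in Tshr f/f and 5.93, 4.8 and 10.5 CPM in Tshr MKO. The highest Tshr f/f sum was then in replicate 3 rather than in the replicate with high Arg1. Among Tshr MKO libraries the highest sum stayed in the replicate with high Arg1. The part of other cells in the values of the 10 genes was not tested.

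The genes around the IL-4 receptor were described next, from lists of related genes, of which those named below were taken by a rule of size. The counts of each list stand against 7.73% of all genes higher and 10.2% lower at an unadjusted p under 0.05. Il4 and Il13 had 0 counts in every BMDM library. Of 7 tested genes of receptors and JAK-STAT signalling, 3 were lower at an unadjusted p under 0.05 and 0 higher (median log2 fold change -0.37). Il13ra1, the chain that binds IL-13, had 71, 83.1 and 96.4 CPM in Tshr f/f and 46.6, 45 and 56.9 CPM in Tshr MKO (-0.75 ± 0.16, adjusted p = 0.218). Jak2, a receptor kinase, had 303, 268 and 855 CPM against 82.9, 86.6 and 98.3 CPM (-2.41 ± 0.48, adjusted p = 0.218). Both were separate between the groups, and without Tshr f/f replicate 3 the Jak2 value was -1.68. Stat6, the factor that these receptors activate, did not differ detectably, with 217, 226 and 188 CPM against 223, 206 and 235 CPM (0.07 ± 0.15, adjusted p = 0.806).

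Among 9 transcription regulators tied to alternative activation, 2 were higher and 1 lower at an unadjusted p under 0.05. Irf4, a factor of the interferon regulatory family that works with STAT6, had 3.09, 2.43 and 2.84 CPM in Tshr f/f and 5.54, 6.61 and 8.53 CPM in Tshr MKO (1.31 ± 0.25, adjusted p = 0.218). Pparg, a nuclear receptor for fatty acids, had 11.2, 1.03 and 1.77 CPM against 33.5, 41.3 and 17.7 CPM (2.71 ± 0.92, adjusted p = 0.24). Both groups were separate, and Pparg in Tshr f/f replicate 1 stood above the other Tshr f/f libraries, as Mrc1, Clec10a, Mgl2 and Retnla did there. Without Tshr f/f replicate 3 the Pparg value was 2.33 and missed an unadjusted p of 0.05. Cebpb, a factor of inflammatory and of arginase transcription, was lower (-1.12 ± 0.34, adjusted p = 0.227), at -0.67 when Tshr f/f replicate 3 was left out. Klf4 had 24.1, 32.4 and 20.2 CPM against 20.2, 20 and 28.3 CPM (-0.16 ± 0.23, adjusted p = 0.719).

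Of 13 tested genes that IL-4 induces in macrophages beyond the 10, 2 were higher and 4 lower at an unadjusted p under 0.05, with a median log2 fold change of -0.02. Cd200r1, an inhibitory receptor, was higher (57.9, 69.6 and 30.7 CPM against 96.3, 96.9 and 104 CPM, 0.91 ± 0.29, adjusted p = 0.232), as was Alox15, a lipoxygenase, at 0.922 to 1.58 against 1.63 to 4.57 CPM (1.51 ± 0.46, adjusted p = 0.228). Slc7a2, which carries arginine into the cell, was lower, with 136, 280 and 1706 CPM against 62.3, 39.7 and 68.8 CPM (-3.63 ± 0.99, adjusted p = 0.218). Ch25h, which makes 25-hydroxycholesterol and also responds to inflammatory signals, was lower as well (12.7 to 33.7 against 1.08 to 2.24 CPM, -3.66 ± 0.47, adjusted p = 0.218). The Slc7a2 value was -1.87 when its highest library, Tshr f/f replicate 3, was left out. The genes of this list did not share a direction.

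Among 14 tested lectin and scavenger receptors outside the 10, 4 were higher and 3 lower at an unadjusted p under 0.05 (median 0.01). Stab1 (0.97 ± 0.22), Cd36 (0.83 ± 0.25) and Scarb1 (0.75 ± 0.22), scavenger receptors that take up lipoproteins and other ligands, were higher without overlap of the groups. Clec4e (-3.48 ± 0.68) and Clec4d (-1.40 ± 0.41), lectins that sense microbial glycolipids, and Marco (-2.17 ± 0.49), a scavenger receptor for bacteria, were lower without overlap. Without Tshr f/f replicate 3 these were -2.53, -0.85 and -1.69. Mrc2, the paralog of Mrc1, overlapped between groups (0.30 ± 0.47, adjusted p = 0.743).

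Of 8 tested genes of arginine handling, 4 were lower and 1 higher at an unadjusted p under 0.05. Nos2, which competes with arginase for arginine, had 411, 470 and 6550 CPM in Tshr f/f and 2.45, 3.15 and 11.6 CPM in Tshr MKO (-8.75 ± 1.67, adjusted p = 0.218). Ass1, which turns citrulline into a precursor of arginine, had 178, 143 and 345 CPM against 54.9, 49.5 and 51.5 CPM (-2.09 ± 0.34, adjusted p = 0.218). Both genes were separate between groups. Arg2, the mitochondrial paralog of Arg1, overlapped (32.5, 35.3 and 184 CPM against 17.4, 9.82 and 51.6 CPM, adjusted p = 0.363). Odc1, which turns ornithine into putrescine, was lower (-1.88 ± 0.70, adjusted p = 0.258), and Slc25a13 was higher (0.54 ± 0.21, adjusted p = 0.262). Leaving out Tshr f/f replicate 3 gave -6.27 for Nos2, -1.63 for Ass1, -0.60 for Odc1 and 0.45 for Slc25a13, which then missed an unadjusted p of 0.05. For comparison, 9 of 10 genes of classical activation were lower and 0 higher, with a median of -5.69 (7 lower and a median of -3.75 without Tshr f/f replicate 3), and Tshr f/f replicate 3 had the highest CPM of Nos2, Il1b, Il6, Tnf, Il12b, Ptgs2 and Cxcl10. Of the close paralogs, Retnlg, a relative of Retnla known from neutrophils and marrow, had 3, 2 and 3 counts in Tshr f/f and 38, 21 and 71 counts in Tshr MKO (3.80 ± 0.63, adjusted p = 0.218), and Chil1 overlapped (-1.30 ± 0.75, adjusted p = 0.39). Retnlb, Chil5 and Chil6 had 0 counts in BMDMs. None of the genes in these lists passed the adjustment in edgeR.

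**Figure D4:**
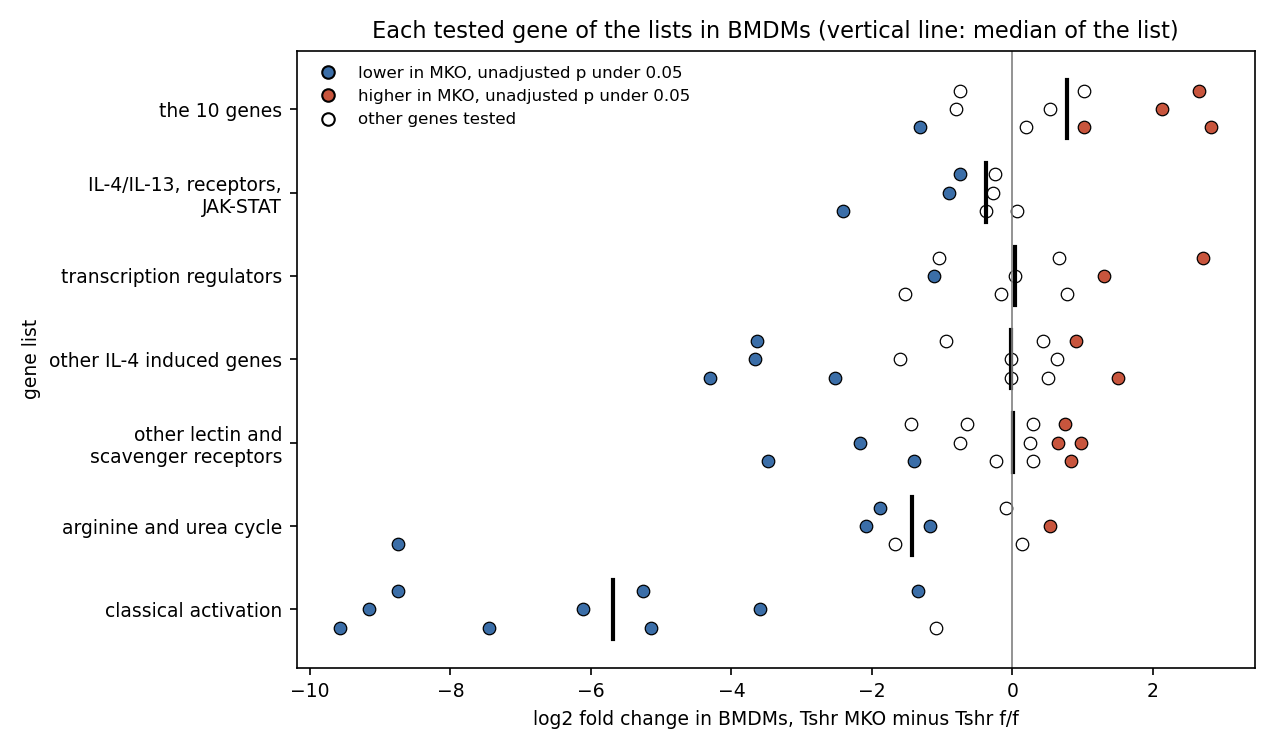
Log2 fold change between Tshr MKO and Tshr f/f BMDMs (edgeR) of each tested gene in 7 lists, with a point per gene, blue and red where the unadjusted p was under 0.05 and a line at the median of the list. Medians are 0.78 for the 10 genes and -5.69 for classical activation, and the list of other IL-4 induced genes has points on both sides of 0.

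The livers were compared next, and their labels need a caution. In a supplementary table of the study, the samples that the deposited labels give as Tshr MKO livers stand under the wild-type heading and those labelled Tshr f/f under the knockout heading, so the direction of each liver difference depends on which is right. Groups are given here as labelled. Lyz2, whose promoter drives the Cre, had 27.7, 59.9 and 44.7 CPM in the livers with the Tshr f/f label. It had 1.56, 106 and 43.7 CPM in those labelled Tshr MKO. The groups overlapped, and both the lowest and the highest value were in livers labelled Tshr MKO. Whether Lyz2 bears on the labels was not tested. Of the 10 macrophage markers tested in livers, 9 had a negative log2 fold change and 0 an unadjusted p under 0.05.

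Chil3 and Il4ra were lower in each liver labelled Tshr MKO than in any labelled Tshr f/f, and only Chil3 of the 10 had an unadjusted p under 0.05. With edgeR 0 of 15062 genes had an adjusted p under 0.05, 1574 had an unadjusted p under 0.05, and DESeq2 called 269. When Tshr f/f replicate 2 was left out, 7 genes passed the adjustment, and when Tshr MKO replicate 3 was, 2 did. Of the 8 genes of the 10 that passed the filter on low counts, 1 was lower at an unadjusted p under 0.05, where 5.18% of all genes were, and 0 were higher, where 5.27% were. The count of 1 became 2 when Tshr f/f replicate 1 or 2 was left out. Groups did not overlap for Chil3 and Il4ra, both lower, where 7.74% of all genes were lower without overlap, 9.6% higher and 17.3% either. Retnla (0, 4 and 0 counts against 2, 5 and 0) and Mgl2 (5, 0 and 0 against 3, 7 and 7) were not tested. The median log2 fold change of the 8 was -0.23, against -0.01 over all genes.

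**Figure D5:**
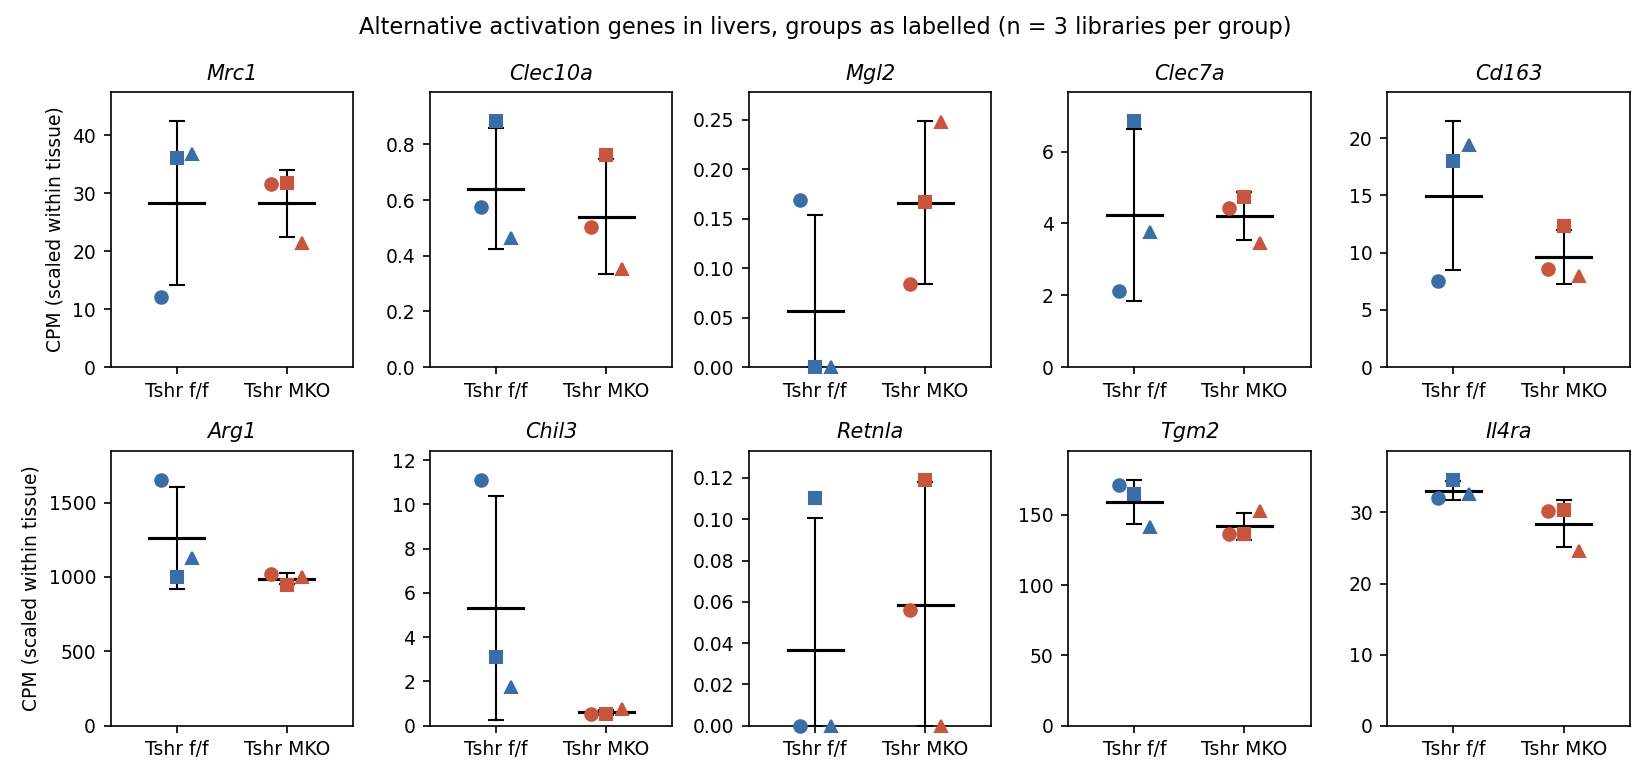
CPM of the 10 genes in livers, scaled within liver libraries, on linear axes from 0, with groups as labelled, circles, squares and triangles for replicates 1, 2 and 3, a line at the mean and bars of 1 SD that stop at 0 (n = 3). The Chil3 panel runs from 1.73 to 11.1 in livers labelled Tshr f/f and from 0.531 to 0.743 in those labelled Tshr MKO, and Tshr f/f replicate 1 is the lowest circle for Mrc1, Clec7a and Cd163.

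Chil3 had 328, 113 and 52 counts (11.1, 3.12 and 1.73 CPM) in the livers with the Tshr f/f label and 19, 23 and 21 counts (0.531, 0.548 and 0.743 CPM) in those labelled Tshr MKO. The first group spread 6.43-fold and the second 1.40-fold. The log2 fold change was -3.13 ± 0.73 (edgeR adjusted p = 0.334; DESeq2 adjusted p = 7.61e-04), and -2.00, still at an unadjusted p under 0.05, without Tshr f/f replicate 1. Chil3 is also made by neutrophils and monocytes, and the 8 neutrophil markers summed to 94.2, 29.3 and 8.1 CPM in the livers with the Tshr f/f label and to 9.81, 15.5 and 17.1 CPM in those labelled Tshr MKO. Of the 7 neutrophil markers tested, 7 had a negative log2 fold change and 2, Ngp (-2.24, adjusted p = 0.437) and Mmp8 (-1.37, adjusted p = 0.433), had an unadjusted p under 0.05, which both missed without Tshr f/f replicate 1 (-0.87 and -1.06). The 5 monocyte markers summed to 3595, 2187 and 2331 CPM against 1916, 1492 and 2235 CPM. Nearly all of this was Fn1, at 3578, 2169 and 2320 CPM against 1906, 1481 and 2226 CPM. The other monocyte markers summed to 17.5, 18.7 and 11.05 CPM against 9.42, 11 and 8.99 CPM. No marker of these lists was at 0 in all libraries of a group, and their part in the Chil3 value was not tested.

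Arg1, here mainly the urea cycle enzyme of hepatocytes, had 1652, 1003 and 1130 CPM in the livers with the Tshr f/f label and 1017, 947 and 1001 CPM in those labelled Tshr MKO. The groups overlapped at 1003 and 1017 CPM, and the log2 fold change was -0.35 ± 0.20 (adjusted p = 0.572), -0.12 without Tshr f/f replicate 1 and -0.50, at an unadjusted p under 0.05, without Tshr f/f replicate 2. Of 10 tested genes of arginine and urea handling, 1 was higher, Otc (0.53 ± 0.14, adjusted p = 0.334), which makes citrulline in the same cycle, and 0 lower.

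The receptors of liver macrophages overlapped between the groups. Cd163, a marker of resident macrophages, had 7.51, 18 and 19.4 CPM in the livers with the Tshr f/f label and 8.61, 12.4 and 7.93 CPM in those labelled Tshr MKO (-0.63 ± 0.37, adjusted p = 0.592). It was -0.96, at an unadjusted p under 0.05, without Tshr f/f replicate 1, the lowest library of that group. Mrc1, which in liver is also made by sinusoidal endothelial cells, had 12.1, 36.1 and 36.8 CPM against 31.5, 31.7 and 21.5 CPM, with a log2 fold change of -0.00 ± 0.41 (adjusted p = 0.998) or -0.37 without Tshr f/f replicate 1. Clec7a had 2.13, 6.84 and 3.75 CPM against 4.44, 4.74 and 3.47 CPM (-0.01 ± 0.41, adjusted p = 0.996), or -0.33 without Tshr f/f replicate 1. Clec10a held 10 to 32 counts per liver and overlapped too (-0.24 ± 0.47, adjusted p = 0.906). Mrc1, Clec7a and Cd163 were each lowest in Tshr f/f replicate 1 among all 6 livers, where the macrophage markers summed to 333 CPM against 274.8 to 666 CPM in the others and the Kupffer cell markers to 230 CPM against 202 to 605 CPM.

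Il4ra and Tgm2 varied little among livers. Il4ra had 32, 34.6 and 32.6 CPM in the livers with the Tshr f/f label and 30.2, 30.4 and 24.6 CPM in those labelled Tshr MKO, separate groups with a log2 fold change of -0.22 ± 0.11 (adjusted p = 0.53), 1.16-fold lower. Tgm2 had 171, 165 and 141 CPM against 136, 136 and 153 CPM, overlapping groups with a log2 fold change of -0.17 ± 0.11 (adjusted p = 0.644). Among the regulators, Kdm6b (-0.80 ± 0.14, adjusted p = 0.303), a histone demethylase, Myc (-0.86 ± 0.31, adjusted p = 0.421) and Ppargc1b (-0.74 ± 0.28, adjusted p = 0.434), a coactivator of nuclear receptors, were lower without overlap of the groups, and 0 of 8 tested were higher at an unadjusted p under 0.05. Stat6 (-0.13 ± 0.11), Irf4 (-0.36 ± 0.53), Pparg (0.26 ± 0.35) and Klf4 (0.27 ± 0.57) overlapped between the groups. Il4 had 3 counts in 1 liver and 0 in the other 5, and Il13 had 0 in all. Of 9 tested genes that IL-4 induces, 1 was lower at an unadjusted p under 0.05, Il1rn (-0.74 ± 0.29, adjusted p = 0.441, or -0.50 without Tshr f/f replicate 1), whose groups overlapped and which is named after its value was seen, and 0 of 13 lectin and scavenger receptors had an unadjusted p under 0.05.

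Whether a genotype difference was larger in BMDMs than in livers was tested by the interaction of genotype and sample type over all 12 libraries. At an unadjusted p under 0.05 the difference was higher in BMDMs for 4 genes, Mrc1, Chil3, Clec10a and Cd163, where 7.12% of all genes were, and lower for 1, Tgm2, where 7.42% were. None of the 10 passed the adjustment in edgeR (adjusted p of 0.177 to 0.283 for these 5), as 0.0058% of all genes tested did, and DESeq2 gave an adjusted p under 0.05 for Mrc1, Chil3, Clec10a and Cd163. The sign in livers, and with it the size of this difference, rests on the labels of the livers.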

How the data were processed

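RNA of 6 BMDM and 6 liver samples was sequenced from stranded libraries. The authors deposited raw counts of reads per gene (unit: counts); per the study's methods, reads were put through Skewer, and FastQC v0.11.2 served as the quality check. The submitters' processing notes name FastQC 0.11.2, STAR, StringTie and the build mm10. The counting program is not given in the sources used here. The study tested genes with the MARS model of DEGseq, which was not used here because it takes no spread between replicates.

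Gene IDs were matched to GENCODE M21 (GRCm38), which gave exon lengths and positions. Tests used the quasi-likelihood method of edgeR 4.0.16 under R 4.3.3, with robust dispersions, scaling by TMM and the low-count filter filterByExpr, each tissue on its own 6 libraries for genotype and all 12 for the comparisons across tissues, with Benjamini-Hochberg adjustment over all genes tested. SEs were obtained by dividing the absolute log2 fold change by the root of the F statistic. CPM are counts divided by the TMM-scaled library size, which removes differences in depth but assumes that most genes do not differ. Log2 fold changes of genes with a count of 0 in a library depend on the prior count of edgeR. No 2 libraries held identical counts. The scripts were tested on simulated data. Plots were drawn with matplotlib 3.10.9 from summaries computed with pandas 2.3.3 and numpy 2.4.6 in python 3.11.15.

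The 10 genes and all lists were chosen with earlier results of these data known. Named from each list were genes at an unadjusted p under 0.05 whose groups did not overlap, at most 3 in each direction by size, and the paralogs, Nos2, Stat6, Il4, Il13, Irf4, Pparg and Klf4 whatever they showed. Of the markers, those of a cell type beside a result were named. Liver Il1rn was named outside this rule. Marker sums without their most abundant gene, and values of list genes without a library that stood apart, were chosen after seeing the data. The fits were repeated with DESeq2 1.42.0, with other scalings (RLE, upper quartile), with the filter removed or set to a mean count of 50, with replicates as blocks, with all 12 libraries together, with paralogs summed, with the initial of the liver sample names as a covariate, and without each library in turn.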

Additional observations from a re-analysis of the deposited data

Results flagged for a closer look

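The genotype difference (Tshr MKO minus Tshr f/f, log2) of 5 of the 10 genes differed between BMDMs and livers at an unadjusted p under 0.05 in the interaction test of edgeR over all 12 libraries, and none of them passed the adjustment over 17246 genes. The difference in BMDMs minus that in livers was 2.13 ± 0.66 (SE) for Mrc1 (adjusted p = 0.228), 3.32 ± 0.86 for Chil3 (adjusted p = 0.177), 2.88 ± 0.94 for Clec10a (adjusted p = 0.236), 1.66 ± 0.51 for Cd163 (adjusted p = 0.226) and -1.15 ± 0.44 for Tgm2 (adjusted p = 0.283). For Mrc1, Clec10a and Tgm2 the BMDM part was 2.13, 2.65 and -1.31 and the liver part -0.00, -0.24 and -0.17. For Chil3 the liver part of -3.13 made up most of the value. The summed neutrophil markers, like Chil3, were highest in liver Tshr f/f replicate 1 (94.2 CPM). In liver Tshr f/f replicate 3 that sum was the lowest among the livers, at 8.1 CPM. Chil3 was at 1.73 CPM there, above the 0.531 to 0.743 CPM of livers labelled Tshr MKO. The part of neutrophils in the Chil3 value was not tested. Cd163 had parts of opposite sign, 1.02 and -0.63. DESeq2 gave adjusted p-values of 0.0357 for Mrc1, 0.00611 for Chil3, 0.0377 for Clec10a, 0.0471 for Cd163 and 0.127 for Tgm2. The Tgm2 value missed an unadjusted p of 0.05 without BMDM Tshr MKO replicate 1, BMDM Tshr MKO replicate 2 or liver Tshr f/f replicate 3, and leaving out each library gave -1.46 to -0.70. With the liver headings of the study's supplementary table in place of the deposited labels, the liver parts would change sign.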

How the results depend on the processing

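The count of all genes at an adjusted p under 0.05 depended on the tool: it was 0 in BMDMs with edgeR on 6 libraries, 150 with all 12 libraries in a fit, 1 with the replicate block and 1223 with DESeq2, and leaving out each replicate gave 0 to 13. In livers it was 0, 1 without a filter and 269 with DESeq2, and 0 to 7 with a replicate left out. The counts of the 10 genes at an unadjusted p under 0.05 stayed within 1.5 times under RLE and upper-quartile scaling, both filters, the block, DESeq2 and the fit of 12 libraries, and ranged from 2 to 7 in BMDMs, 1 to 2 in livers and 4 to 6 for the interaction with a library left out. Between tissues 7 to 9 of the 10 were called with a library left out.

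Replicate numbers recur in the labels without a stated link. Deviations of same-numbered libraries correlated at 0.10, 0.01 and 0.10 in BMDMs and at -0.06, 0.22 and -0.02 in livers, so they were not taken as pairs. With the replicate block, Arg1 turned to 1.04 in BMDMs and 1.35 in the interaction, and Mrc1 and Clec7a to 0.12 each in livers. Mgl2 in BMDMs, at 2.48, missed an unadjusted p of 0.05.

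Small liver values also changed sign without a filter (Mrc1 0.01, Clec7a 0.00), with all 12 libraries (Mrc1 0.01, Clec7a 0.00) and with paralogs summed (Clec10a 0.02). With a replicate left out, values ranged over 0 for Arg1 (-2.96 to 3.10) and Chil3 (-0.06 to 0.63) in BMDMs, for Mrc1 (-0.37 to 0.22), Clec10a (-0.59 to 0.07) and Clec7a (-0.33 to 0.52) in livers, and for Arg1 (-2.60 to 3.45), Retnla (-3.78 to 2.60) and Mgl2 (-3.31 to 2.23) in the interaction. Among the named list genes, values near 0 changed sign for Stat6 (-0.00) without BMDM Tshr f/f replicate 3 and for Irf4 (0.07) and Klf4 (-0.06) without liver Tshr f/f replicate 1. The cause was not tested. DESeq2 gave no p for Arg1 in BMDMs. With the initial of the liver sample names as a covariate, Chil3 was -2.45 at an unadjusted p under 0.05 and 0 genes passed the adjustment. Depth limits Retnla and Mgl2 in livers, at 7 counts or fewer per library.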
